A study of Mus musculus with 16 samples.

Results

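The genes described here code for the parts of respiratory complexes II to V, the machinery of the inner mitochondrial membrane that carries electrons from succinate to oxygen and uses the resulting proton gradient to make ATP. They were chosen by symbol (the *Sdh*, *Uqcr*, *Cox4* to *Cox8* and *Atp5* genes, *Cyc1*, *Cycs*, *mt-Cytb*, *mt-Co1* to *mt-Co3*, *mt-Atp6* and *mt-Atp8*), without pseudogenes, where at least 4 of 16 libraries held a CPM (counts per 1e6 of a library) of 1 or more. Of 64 matching symbols among 52143 genes, 8 were pseudogenes, 8 were too low and 48 remained: 4 of complex II, 10 of complex III, cytochrome c, 14 of complex IV and 19 of complex V. All 48 also passed the filter of the tests. The rule used no measured difference between groups, but it was set with earlier results of these data known.

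Livers came from 16 male C57BL6/J mice, 4 to a group, that ate chow or a high-fat diet (HFD, 60% of energy from fat) for 12 weeks from the age of 6 weeks. Every 2 weeks they received 0.9% saline or an siRNA (3 mg/kg) whose target was *Fgfr4*, the hepatocyte receptor for the gut hormone FGF15 that holds down bile acid synthesis. The groups are Chow and HFD (saline, labelled control), and Chow/FGFR4 KD and HFD/FGFR4 KD (siRNA). The siRNA carried GalNAc, a sugar bound by hepatocytes, so the knockdown (KD) was directed to these cells. No group received an siRNA against another target, so an effect of the injected RNA and one of the loss of FGFR4 cannot be told apart. Mice were housed 4 to a cage, and which of them shared a cage is not given in the sources used here.

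Complex II (succinate dehydrogenase) takes electrons from succinate, and complex III (the cytochrome bc1 complex) feeds electrons to cytochrome c. Complex IV (cytochrome c oxidase) passes them to oxygen, and complex V (ATP synthase) lets protons back to make ATP. Complexes III, IV and V are built from products of both the nucleus and the mitochondrial DNA, whereas complex II is nuclear throughout. Among the 48 genes 42 were nuclear and 6 mitochondrial. The liver burns much of its fatty acid supply through this chain, which is why diets rich in fat are often studied with it.

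The siRNA target was lower in all 8 treated libraries (2.43 to 6.17 CPM) than in all 8 others (21.8 to 36.3 CPM). Total counts per library ran from 3445950 to 5976450, and none of 24 pairs of libraries within a group was alike within sampling noise (chi-square per degree of freedom 7.59 to 72.6 over 7405 genes). *Alb*, the main product of hepatocytes, was at 39462 CPM or more in each library, and 8 striated muscle markers were each under 1 CPM in every library. The library HFD/FGFR4 KD 1 stood apart. On the first principal component of the 500 most variable genes (47.5% of their variance) its score was -6.35, where the 8 libraries of chow-fed mice also lay (-22.9 to -4.83), away from the other HFD/FGFR4 KD libraries (16.4 to 19.9). The scores of HFD were spread as well. HFD 1 and HFD 3 were at 25.8 and 30.3, and HFD 2 and HFD 4 at 6.02 and 9.69. Results that rest on HFD/FGFR4 KD 1 are given without it as well. Because whole livers were used, fewer cells of a type and less RNA per cell cannot be told apart.

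The 6 mitochondrial genes stood above the nuclear ones, most of them far above. Scaled to the length of the principal transcript, *mt-Co1* (the catalytic subunit of complex IV, which binds oxygen) had a mean level of 8934 CPM per kilobase over the 16 libraries, *mt-Atp6* (the proton channel of complex V) 5885 and *mt-Cytb* (the electron-carrying core of complex III) 5253. The lowest of the 6, *mt-Atp8*, a short membrane subunit of complex V, was at 558 CPM per kilobase, still above the highest nuclear gene, *Atp5b*, at 448. *Atp5b* codes for the catalytic beta subunit of ATP synthase.

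Among nuclear genes the medians per kilobase were 101 CPM for complex II, 109 for complex III, 157 for complex IV and 143 for complex V with the longest principal transcript of each gene. With the shortest they were 101, 135, 163 and 146, so the order of the medians was the same, while single genes with several principal transcripts moved: *Atp5g1* was at 19.4 or 153 CPM per kilobase. *Cycs*, which codes for cytochrome c, had 21.5 CPM per kilobase of a long transcript, and *Atp5s*, a factor that couples ATP synthase rather than a subunit, was the lowest at 2.09 to 2.26. Muscle and tissue-restricted forms (*Cox4i2*, *Cox6a2*, *Cox6b2*, *Cox7a1*, *Cox7b2*, *Cox8b*, *Cox8c*) were all among the 8 protein-coding genes that were too low.

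*mt-Co2*, *mt-Co3* and *mt-Atp6* could not be counted apart from copies of mitochondrial DNA in the nucleus. Gm28661, a pseudogene on chromosome 1 (chr1:24614885-24615565, minus strand, GRCm38), matched *mt-Co2* over all 681 bases compared with 0 differences. The first 60 bases of both, at chrM:7013-7072 and chr1:24615506-24615565, are shown because reads from them cannot be assigned.
mt-Co2: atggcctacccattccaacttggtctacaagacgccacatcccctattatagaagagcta
Gm28661: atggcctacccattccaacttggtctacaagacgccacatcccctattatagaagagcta
Both read the same from end to end. In the same cluster on chromosome 1, Gm28437 matched *mt-Co3* over 783 bases and Gm10925 matched *mt-Atp6* over 678 bases, again with 0 differences. The estimated counts were split unevenly: Gm28661 and Gm13341, a copy on chromosome 2, held 64.8 to 87.7% of the counts of *mt-Co2* and its copies (median 71.3%), the copies of *mt-Co3* held 45.5 to 68% (median 54.8%), those of *mt-Co1* 12.1 to 21.4% and that of *mt-Atp6* 0.215 to 15.9%. For *mt-Cytb* the share was at most 0.00663%.

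*mt-Atp8* and *mt-Atp6* overlap on the same strand over 43 bases, chrM:7927-7969, so that reads there belong to either gene.
Overlap: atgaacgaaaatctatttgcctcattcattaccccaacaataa
This stretch opens the *mt-Atp6* frame and closes that of *mt-Atp8*. The values of both genes, their levels per kilobase included, carry this limit. Whether they stand for separate transcripts was not tested.

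**Figure D1:**
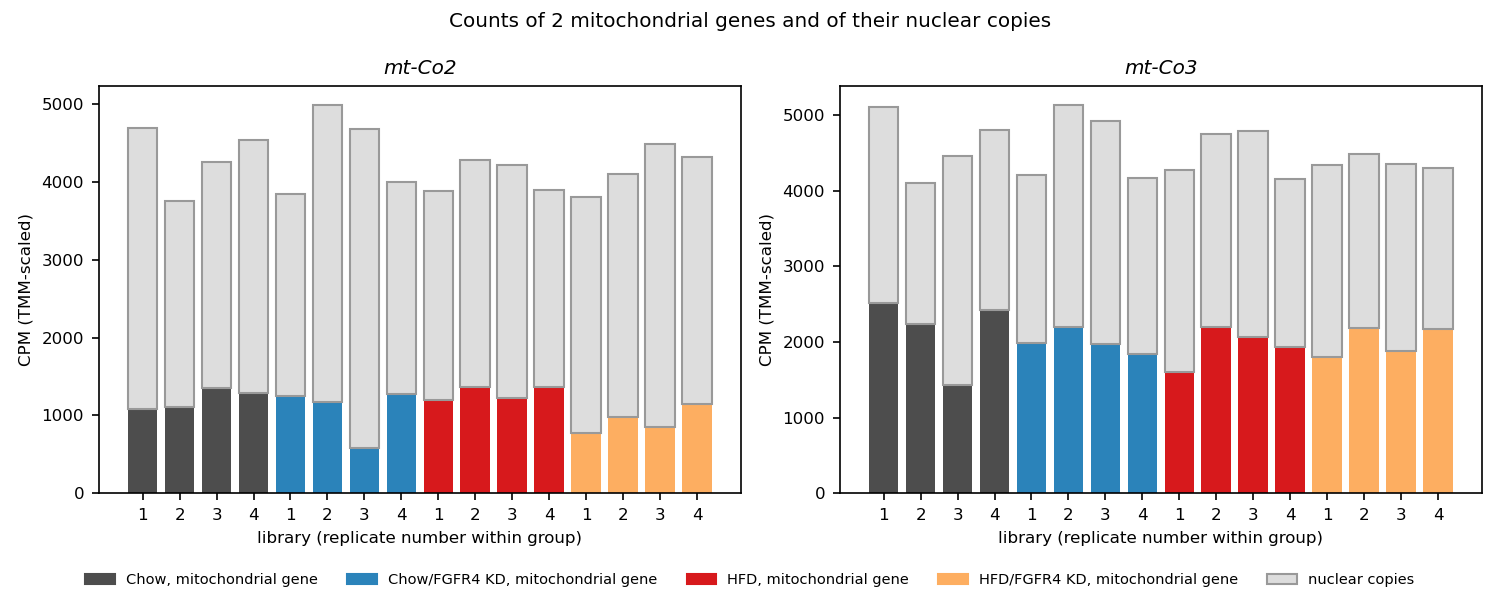
Level of *mt-Co2* and *mt-Co3* (vertical axis, CPM with TMM factors) in each of the 16 libraries (horizontal axis, replicate numbers within the 4 groups). Coloured bars are the counts given to the mitochondrial gene and grey bars those given to its nuclear copies. The coloured part of *mt-Co2* drops to 578 CPM in Chow/FGFR4 KD 3 while the whole bar stays at 4689 CPM.

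The nuclear genes were held within narrow bounds. The median SD within groups was 0.11 on the log2 scale for the 42 nuclear genes, and 0.15 for 1457 other genes of a like level (56.1 to 235 CPM), with an interquartile range of 0.11 to 0.21. *Atp5b* ranged only 1.16-fold between its lowest and highest library. *Atp5g2*, one of the genes for subunit c of the rotor ring, ranged 2.97-fold. Chow 3 was the highest library for 21 of the 48 genes and HFD/FGFR4 KD 3 the lowest for 14. Chow 3 also held more counts of some cell markers than the other Chow libraries. Of bile duct markers *Epcam* had 50 (others 0 to 4) and *Krt19* 44 (1 to 8), but *Sox9* 34 (28 to 72). Of adipocyte markers *Cfd* had 54 (1 to 15) and *Cidec* 70 (5 to 14), but *Fabp4* 18 (11 to 18.1). These markers were picked after their values were seen, and their part in the values of the 48 genes was not tested.

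The first question was whether FGFR4 KD changed the complexes on HFD. With limma-voom (Benjamini-Hochberg adjusted p under 0.25 and p under 0.05, the threshold of the study) 0 of the 48 genes passed, against 3.14% of the 11324 genes tested. At an unadjusted p under 0.05 there were 6 (12.5%, against 11% of all genes tested). The quasi-likelihood test of edgeR called 0, against 2.17% of all genes tested. DESeq2 called 2, *Cox6a1* and *Uqcrc2*, against 3.44%. The median log2 change was -0.06 (all genes tested 0.00), and 36 of 48 values lay below 0. Their 95% intervals lay within 0.5 on the log2 scale in both directions, a change of 1.41-fold, for 43 of 48 genes, the others being *Sdhd*, *mt-Co2*, *Atp5g2*, *Atp5s* and *mt-Atp8*.

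*Sdha* codes for the flavoprotein of complex II, which oxidises succinate (chr13:74322254-74350280, GRCm38, minus strand). It was at 464, 394, 445 and 419 CPM in HFD and at 381, 404, 402 and 393 CPM in HFD/FGFR4 KD. The groups overlapped, and the log2 difference of -0.12 (95% interval -0.28 to 0.04) did not pass (adjusted p 0.605).

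*Uqcrc1*, a core subunit of complex III (chr9:108936633-108949623, plus strand), had 84.7, 82.9, 82.9 and 76.8 CPM in HFD and 80.5, 74.4, 73.4 and 91.2 CPM in HFD/FGFR4 KD. The last of these was above every HFD library, and the log2 difference was -0.04 (-0.22 to 0.13, adjusted p 0.889).

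*Cox4i1*, the first nuclear subunit to join complex IV (chr8:120668222-120674207, plus strand), was at 241, 244, 232 and 214 CPM in HFD and at 214, 235, 217 and 220.2 CPM with KD, a log2 difference of -0.07 (-0.22 to 0.08, adjusted p 0.776). Again the groups overlapped. *mt-Co1* (chrM:5328-6872, plus strand) had 13131, 12993, 14389 and 13285 CPM in HFD and 12947, 14073, 13032 and 14399 CPM in HFD/FGFR4 KD. Its difference of 0.02 (-0.16 to 0.19, adjusted p 0.960) was near 0 and had the other sign with the nuclear copies added (-0.01) and when counts were scaled to library totals (-0.06, where the median of all genes was -0.08).

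By complex, the medians of KD on HFD were -0.12 for the 4 genes of complex II, -0.04 for the 9 nuclear genes of complex III, -0.09 for the 11 of complex IV and -0.06 for the 17 of complex V. Those of the 42 nuclear and 6 mitochondrial genes were -0.06 and 0.03. With single libraries omitted the nuclear median ran from -0.10 to -0.04. That of complex II ran from -0.15 to -0.09, that of complex III from -0.06 to -0.0049 (without HFD 2), that of complex IV from -0.13 to -0.06 (without HFD/FGFR4 KD 3) and that of complex V from -0.08 to -0.04 (without HFD 2). No complex held a gene that passed.

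The 6 genes with an unadjusted p under 0.05 were *Cox6a1* (-0.20, adjusted p 0.282), a regulatory subunit of complex IV, *Uqcrc2* (-0.18, adjusted p 0.329), a core subunit of complex III, *Sdhd* (-0.27, adjusted p 0.368), a membrane anchor of complex II, and *Uqcr10* (-0.23, adjusted p 0.369), a small subunit of complex III, with *mt-Co2* and *mt-Atp8*. They were chosen after their values were seen. Groups did not overlap for 4 genes (8.33%, against 6.49% of all genes tested): *Cox6a1*, *Uqcrc2*, *mt-Co2* and *mt-Atp8*. *Uqcr10* passed when HFD/FGFR4 KD 2 was left out, at 62.6 CPM the highest of its group, and *Uqcrc2* when HFD 2 was left out. Without HFD/FGFR4 KD 1 there were 0 genes called, against 1.21% of all genes tested.

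*mt-Co2*, which codes for the subunit of complex IV that takes electrons from cytochrome c, had the lowest value of the 48. Its level was 1199, 1365, 1226 and 1369.6 CPM in HFD and 779, 982, 848 and 1149.9 CPM in HFD/FGFR4 KD, without overlap, a log2 difference of -0.47 (-0.89 to -0.05, adjusted p 0.386). Counted together with its nuclear copies it was at 3885, 4289.6, 4227 and 3897 CPM in HFD and 3815, 4105, 4496 and 4329 CPM with KD. These groups overlapped and the difference was 0.04 (-0.17 to 0.24, adjusted p 0.928).

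*mt-Atp8* was at 94.8, 106, 110.4 and 103 CPM in HFD and at 122, 122, 144 and 133 CPM in HFD/FGFR4 KD, higher in each, with a log2 difference of 0.33 (0.01 to 0.66) that did not pass (adjusted p 0.444). *mt-Atp6*, with which it shares its end and a common precursor, differed by 0.07 (adjusted p 0.876). Because these genes overlap on the same strand, their values cannot be read as levels of separate transcripts. How far the assignment of reads set them apart was not tested.

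On chow, KD called 0 of the 48 genes, against 0.00883% of all genes tested, and 0 had an unadjusted p under 0.05, against 4.58% (edgeR 0, DESeq2 0). Groups did not overlap for 0 of them, against 2.52%. The intervals of 44 genes lay within 0.5. *Sdha* had 396, 412, 424 and 444 CPM in Chow and 422, 361, 433 and 393 CPM in Chow/FGFR4 KD, a log2 difference of -0.06 (-0.22 to 0.10). *mt-Co1* had 15199.6, 12648, 13096 and 14054 CPM in Chow and 14089, 15054, 15187 and 13260.2 CPM with KD, a difference of 0.07 (-0.10 to 0.24). In both genes each group held values above and below those of the other. The median was -0.04, with 35 of 48 below 0, and came to -0.01 with 27 below 0 when Chow 3 was left out.

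The test of the difference between the KD effects on the 2 diets also called 0 genes (0.0353% of all genes tested; edgeR 0, DESeq2 0). Only *Cox6a1* had an unadjusted p under 0.05 (2.08%, against 6.76% of all genes tested), at -0.23 (95% interval -0.43 to -0.02, adjusted p 0.700). The 2 KD comparisons share no library, and 33 of the 48 genes (68.8%) had the same sign in both, 28 of them below 0. Of all genes tested 52.5% had the same sign in both. Most values of the 48 genes lay below 0 in each comparison, which by itself raises their share. Across the 42 nuclear genes the sizes of both KD effects were unrelated (Pearson's r -0.03, Spearman's rho -0.07, across genes, which are not independent).

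**Figure D2:**
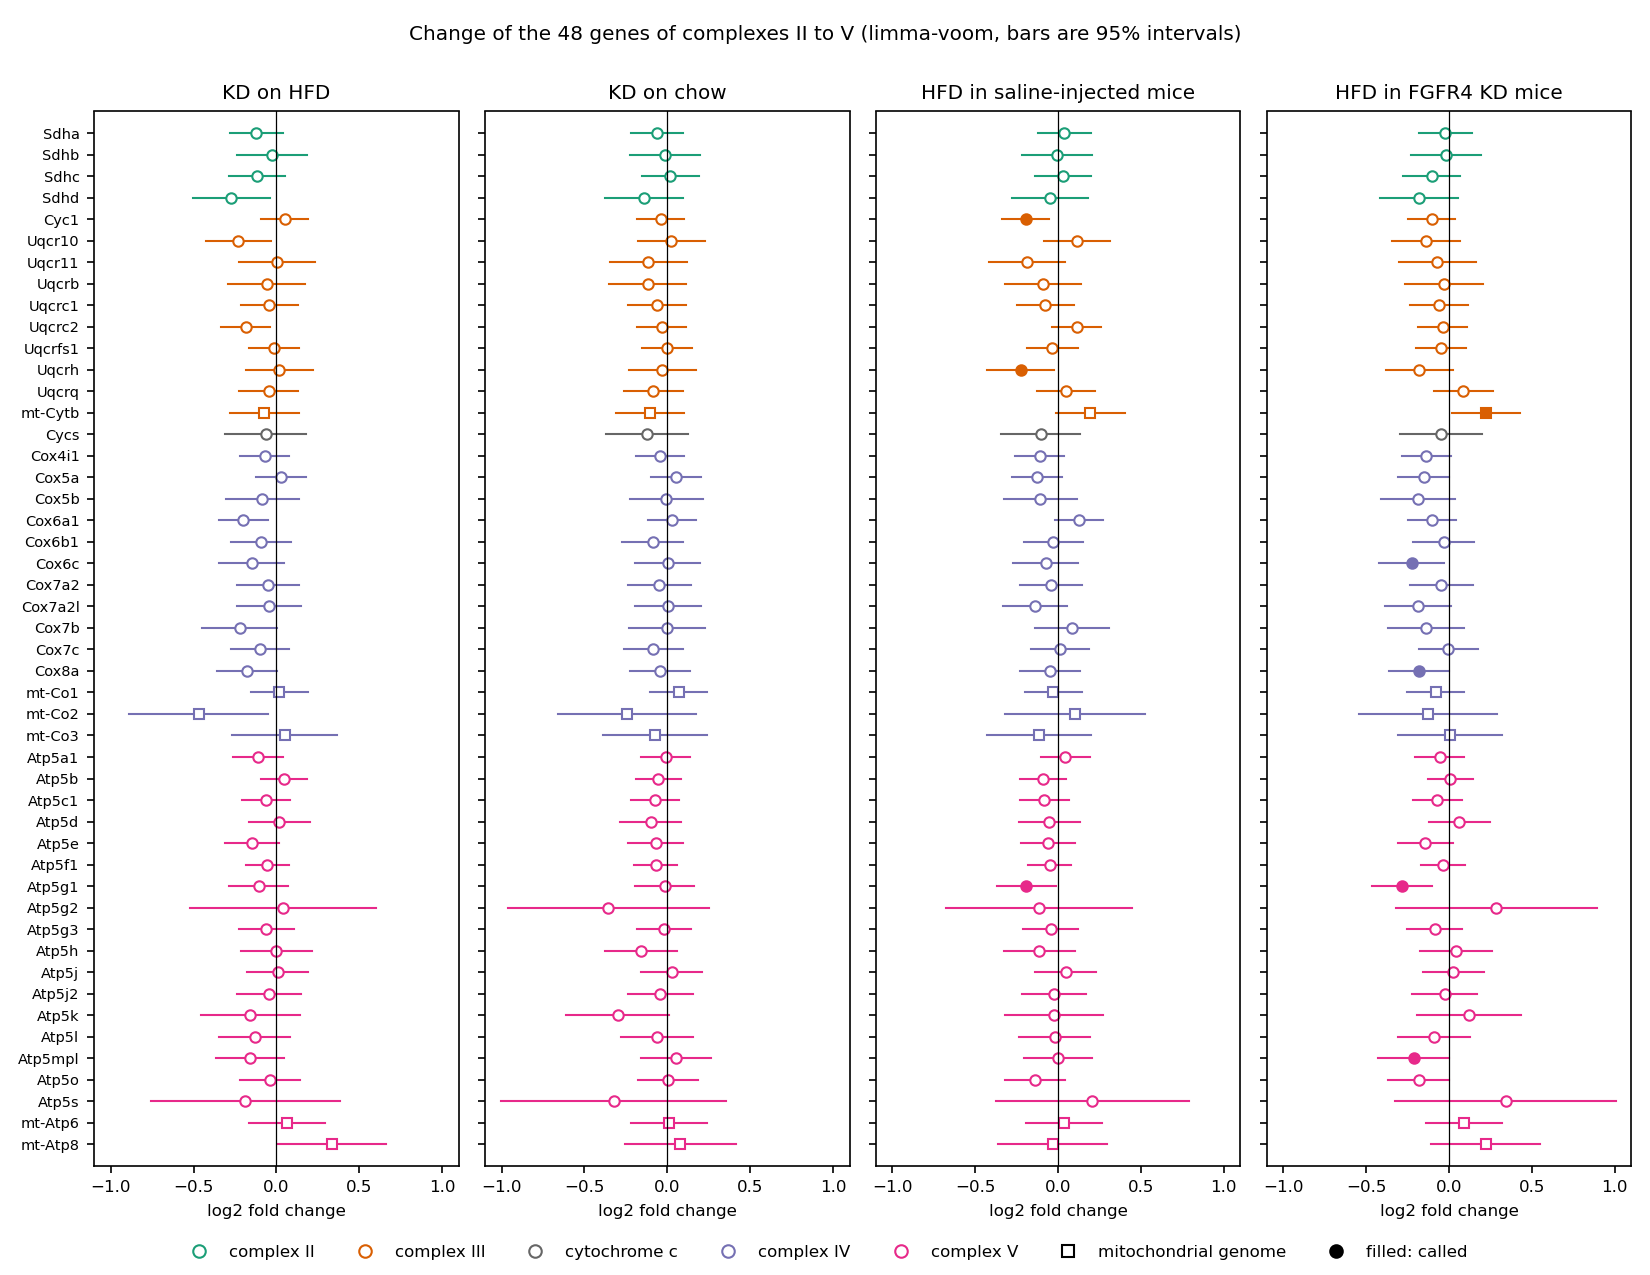
Log2 fold change (horizontal axis) of each of the 48 genes (vertical axis, ordered by complex) in 4 comparisons, with 95% intervals from limma-voom. Squares are genes of the mitochondrial genome and filled symbols passed the threshold. No symbol is filled in the 2 KD panels, and the 3 and 5 filled symbols of the diet panels all lie within 0.3 of 0.

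The second question was the effect of HFD itself. In saline-injected mice 3 of the 48 genes passed (6.25%), all lower on HFD, against 26% of all genes tested and 12.7% called lower. They were *Cyc1*, *Uqcrh* and *Atp5g1*. In FGFR4 KD mice 5 passed (10.4%), against 20.2% of all genes tested (10.1% called lower and 10.1% higher): *Atp5g1*, *Cox6c*, *Cox8a* and *Atp5mpl* were lower and *mt-Cytb* higher. At an adjusted p under 0.05 none passed in either comparison, against 9.2% and 3.1% of all genes tested. Scaling to library totals moved the median of all genes by 0.29 in saline-injected and 0.14 in FGFR4 KD mice, so the changes given for diet, those of the gene lists included, are relative to the bulk of genes. On that scale *Cyc1*, *Uqcrh* and *Atp5g1* had positive values in saline-injected mice (0.08, 0.05 and 0.09), which relative to that median were -0.20, -0.23 and -0.20. The calls also turned: 14 of the 48 genes passed in saline-injected mice on that scale, all higher on HFD and none of them *Cyc1*, *Uqcrh* or *Atp5g1*. Of all genes tested 38% passed there, and 92.1% of these calls were higher on HFD, so the count does not set the 48 genes apart on that scale. The 5 genes called in FGFR4 KD mice kept their sign on it, but of these only *mt-Cytb* passed.

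*Atp5g1* was called in both diet comparisons, which share no library. It codes for subunit c, the ring of ATP synthase that turns as protons pass (chr11:96068852-96075670, minus strand). Levels were 102, 92.1, 115 and 88.8 CPM in Chow and 85.9, 93, 89.4 and 79.3 CPM in HFD. These groups overlapped, and *Atp5g1* fell by 0.19 on the log2 scale (95% interval -0.37 to -0.02, adjusted p 0.157). With KD it had 97.3, 92.6, 97.9 and 105 CPM on chow and 80.7, 81.3, 78.5 and 82.2 CPM on HFD, each of these below each chow library, a fall of 0.28 on the log2 scale (-0.46 to -0.10, adjusted p 0.0779).

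Leaving out any of the 8 libraries kept the call for *Atp5g1* in FGFR4 KD mice (-0.31 to -0.25), whereas in saline-injected mice 4 of 8 such fits kept it. It was lost there without Chow 1, Chow 3, HFD 1 or HFD 4. The other genes for the same mature protein did not pass. *Atp5g3*, the most abundant of the 3, differed by -0.04 and -0.09 (adjusted p 0.768 and 0.579) and *Atp5g2* by -0.11 and 0.29 (adjusted p 0.825 and 0.615). Of the 31-base words of *Atp5g1*, 14.1% occur in transcripts of other genes.

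*Cyc1*, the cytochrome c1 of complex III, which hands electrons to cytochrome c (chr15:76343523-76346260, plus strand), was at 130.5, 119, 134 and 133 CPM in Chow and at 119.7, 112, 112 and 107 CPM in HFD. Only HFD 1 was above a chow library, Chow 2, and *Cyc1* fell by 0.20 on the log2 scale (95% interval -0.34 to -0.05, adjusted p 0.0797), a call kept in all 8 fits with a library left out. With KD it had 117, 124, 133 and 128 CPM on chow and 119, 119.7, 114 and 114 CPM on HFD, a difference of -0.11 that did not pass (-0.25 to 0.04, adjusted p 0.410).

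*Uqcrh*, the hinge subunit that lies against cytochrome c1 (chr4:116066965-116075071, minus strand), had 87.5, 93.9, 106 and 88.8 CPM in Chow and 89.3, 82.4, 73.3 and 76.5 CPM in HFD. One HFD library was above 2 of the chow libraries. *Uqcrh* fell by 0.23 (-0.43 to -0.03, adjusted p 0.142) and lost the call without Chow 3, HFD 3 or HFD 4. In FGFR4 KD mice the difference was -0.18 (-0.38 to 0.03, adjusted p 0.315). *Cycs* itself differed by -0.11 and -0.05 (adjusted p 0.600 and 0.859).

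*Cox6c* and *Cox8a*, small subunits on the surface of complex IV, passed in FGFR4 KD mice. *Cox6c* (chr15:35925886-35938246, minus strand) was at 128, 122.8, 132 and 103 CPM on chow and 111, 102, 98.1 and 104 CPM on HFD, a fall of 0.23 (-0.42 to -0.03, adjusted p 0.187). *Cox8a* (chr19:7215153-7217616, minus strand) was at 159, 145, 166 and 145 CPM on chow and 122, 147, 127 and 148 CPM on HFD, a fall of 0.18 (-0.36 to -0.00, adjusted p 0.243). In both genes the groups overlapped.

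*Atp5mpl*, a small membrane subunit of ATP synthase (chr12:111961375-111966977, minus strand), had 40.8, 51.2, 48.4 and 42.2 CPM on chow and 41.4, 42.3, 34.4 and 39.6 CPM on HFD, and fell by 0.21 (-0.43 to -0.00, adjusted p 0.245). These 3 calls were close to the threshold. *Cox6c* kept its call in 2 of 8 fits with a library left out, *Cox8a* in 3 and *Atp5mpl* in 2. Without HFD/FGFR4 KD 1 the calls of *Cox6c* and *Atp5mpl* remained and that of *Cox8a* did not. In that fit 6 genes were called in all, *Cox5a* and *Uqcrh* among them, against 22.3% of all genes tested. Without HFD/FGFR4 KD 3 only *Atp5g1* was called, against 12.8%. In saline-injected mice the differences were -0.07 for *Cox6c*, -0.05 for *Cox8a* and -0.00 for *Atp5mpl* (adjusted p 0.659, 0.768 and 0.997).

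**Figure D3:**
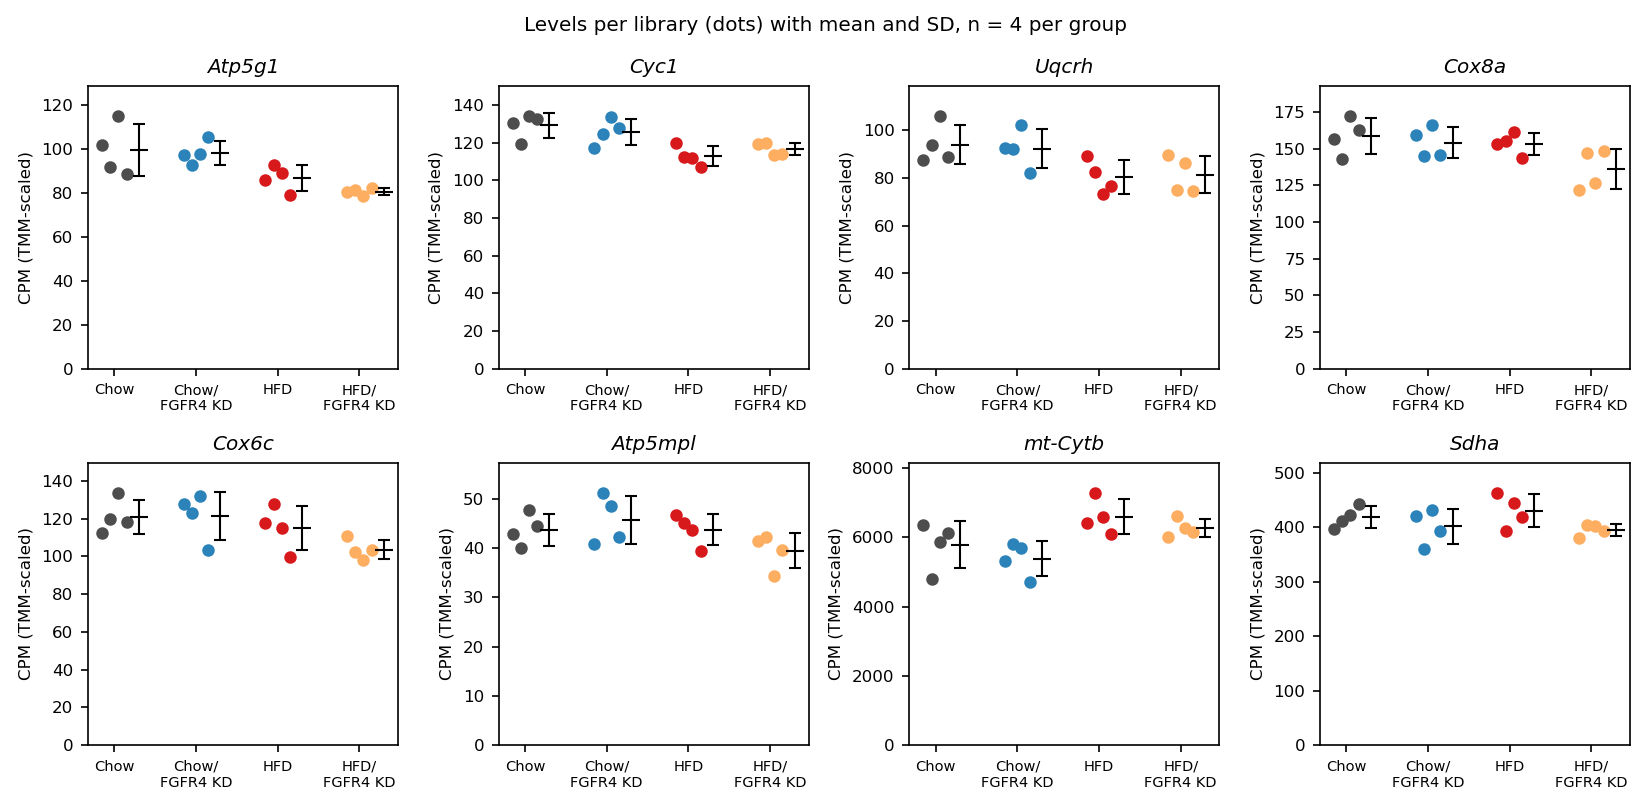
Level (vertical axis, CPM with TMM factors, from 0) of the 7 genes called in either diet comparison and of *Sdha*, in the 4 groups (horizontal axis). Dots are libraries, with mean and SD (n = 4) beside them. The 4 HFD/FGFR4 KD values of *Atp5g1* lie between 78.5 and 82.2 CPM, below all chow libraries, and *mt-Cytb* is higher in HFD/FGFR4 KD than in each Chow/FGFR4 KD library.

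Of the 4 genes chosen to mark the complexes, none passed with diet in saline-injected mice. *Sdha* differed by 0.04 (95% interval -0.12 to 0.20, adjusted p 0.795), *Uqcrc1* by -0.08 (-0.25 to 0.10, adjusted p 0.594), *Cox4i1* by -0.11 (-0.26 to 0.04, adjusted p 0.329) and *mt-Co1* by -0.03 (-0.20 to 0.14, adjusted p 0.855). Scaled to library totals, the values of *Uqcrc1*, *Cox4i1* and *mt-Co1* were above 0 (0.20, 0.17 and 0.25) and relative to the median of all genes below it (-0.08, -0.12 and -0.04).

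The diet medians of the complexes were 0.01 for complex II, -0.08 for nuclear complex III, -0.05 for nuclear complex IV and -0.05 for nuclear complex V in saline-injected mice. Omitting single libraries there gave -0.01 (without Chow 1) to 0.04 (without Chow 3), -0.10 (without Chow 2) to -0.04 (without HFD 3), -0.10 (without Chow 2) to -0.0077 (without Chow 3) and -0.09 (without HFD 2) to -0.0057 (without Chow 3). With KD they were -0.06, -0.06, -0.14 and -0.03, and all 11 nuclear genes of complex IV lay below 0 there, 2 of them called. Omitting any one library, this median was -0.16 to -0.12, while those of complexes II, III and V ran from -0.10 to -0.03 (without Chow/FGFR4 KD 3), from -0.11 (without HFD/FGFR4 KD 1) to -0.03 (without Chow/FGFR4 KD 3) and from -0.07 (without HFD/FGFR4 KD 4) to -0.02 (without HFD/FGFR4 KD 3). Scaled to library totals, the medians of the 48 genes were 0.24 in saline-injected and 0.10 in FGFR4 KD mice, below those of all genes (0.29 and 0.14). In saline-injected mice the median of the 42 nuclear genes came to -0.01 without Chow 3, with 22 of them below 0. Over both diet comparisons 32 of the 48 genes (66.7%) had the same sign, 27 of them below 0, close to the 69.8% of all genes tested.

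Groups did not overlap for 2 genes in saline-injected mice (4.17%, against 16.1% of all genes tested and 7.76% lower), *Atp5b* and *Cox7a2l*, both lower on HFD, and for 4 in FGFR4 KD mice (8.33%, against 11.5%). *Cox7a2l*, which links complexes III and IV into supercomplexes, differed by -0.14 and -0.19 (adjusted p 0.354 and 0.274), and *Cox7a2*, the subunit of complex IV it resembles, by -0.05 and -0.05. Neither passed.

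The diet values of the mitochondrial genes were partly ordered along their genome. These genes are cut from one long heavy-strand transcript that begins with the ribosomal RNAs and ends with *mt-Cytb*. *mt-Cytb* (chrM:14145-15288, plus strand) was at 5319, 5824, 5686 and 4702 CPM in Chow/FGFR4 KD and at 6009, 6611, 6278 and 6152 CPM in HFD/FGFR4 KD, without overlap, a rise of 0.22 (0.02 to 0.43, adjusted p 0.209). In saline-injected mice it had 6362, 4811, 5881 and 6117 CPM on chow and 6424, 7291, 6599 and 6091 CPM on HFD, a difference of 0.19 that did not pass (-0.01 to 0.40, adjusted p 0.226).

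*mt-Cytb* kept its call in 3 of 8 fits with a library left out, that without HFD/FGFR4 KD 1 among them. At the start of the transcript the 12S ribosomal RNA, *mt-Rnr1*, fell by 0.59 in saline-injected mice (adjusted p 0.0760) and the 16S, *mt-Rnr2*, by 0.55 (adjusted p 0.125). In FGFR4 KD mice they differed by -0.21 and -0.15 and did not pass (adjusted p 0.588 and 0.745). Next come the complex I genes *mt-Nd1* and *mt-Nd2*, which fell in FGFR4 KD mice by 0.35 and 0.27 (adjusted p 0.0736 and 0.121) and differed by -0.19 and -0.13 in saline-injected mice (adjusted p 0.265 and 0.427).

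The middle of the transcript holds 5 of the 6 genes described here. With nuclear copies counted in, *mt-Co1*, *mt-Co2*, *mt-Atp8*, *mt-Atp6* and *mt-Co3* differed by -0.05, -0.08, -0.03, -0.03 and -0.04 in saline-injected mice and by -0.11, -0.06, 0.22, 0.05 and -0.07 in FGFR4 KD mice, and none passed. Towards the end *mt-Nd4l*, *mt-Nd4* and *mt-Nd5* differed by 0.14, 0.09 and 0.16 and by 0.14, 0.10 and 0.14. Several genes were out of this order. *mt-Nd3* was at -0.05 and -0.51 (adjusted p 0.931 and 0.316), and in FGFR4 KD mice both ribosomal RNAs lay above *mt-Nd1* and *mt-Nd2*, and *mt-Atp8* was level with *mt-Cytb*.

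Spearman's rho between place and log2 change over the 14 genes was 0.95 in saline-injected mice and 0.67 in FGFR4 KD mice with the nuclear copies counted in, and 0.84 and 0.67 without them. Over the 12 protein-coding genes it was 0.92 and 0.64. In the KD comparisons it was -0.26 on HFD and 0.09 on chow. These values are descriptions of a pattern chosen after it was seen: the genes share their libraries and their precursor, and the copies of complex I genes were not added. The overlapping *mt-Atp8* and *mt-Atp6* were counted as separate points. The share of counts taken by *Gm42418* and *Lars2*, which hold reads from nuclear ribosomal RNA, moved with diet too, from 20.6 ± 5.11% in Chow to 15.4 ± 2.14% in HFD (SD, n = 4), and from 18.5 ± 2.84% to 18.1 ± 4.31% with KD. Within Chow this share was 14.4% in Chow 3 and 18.4 to 25.3% in the other libraries. The part of this share in the pattern was not tested.

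**Figure D4:**
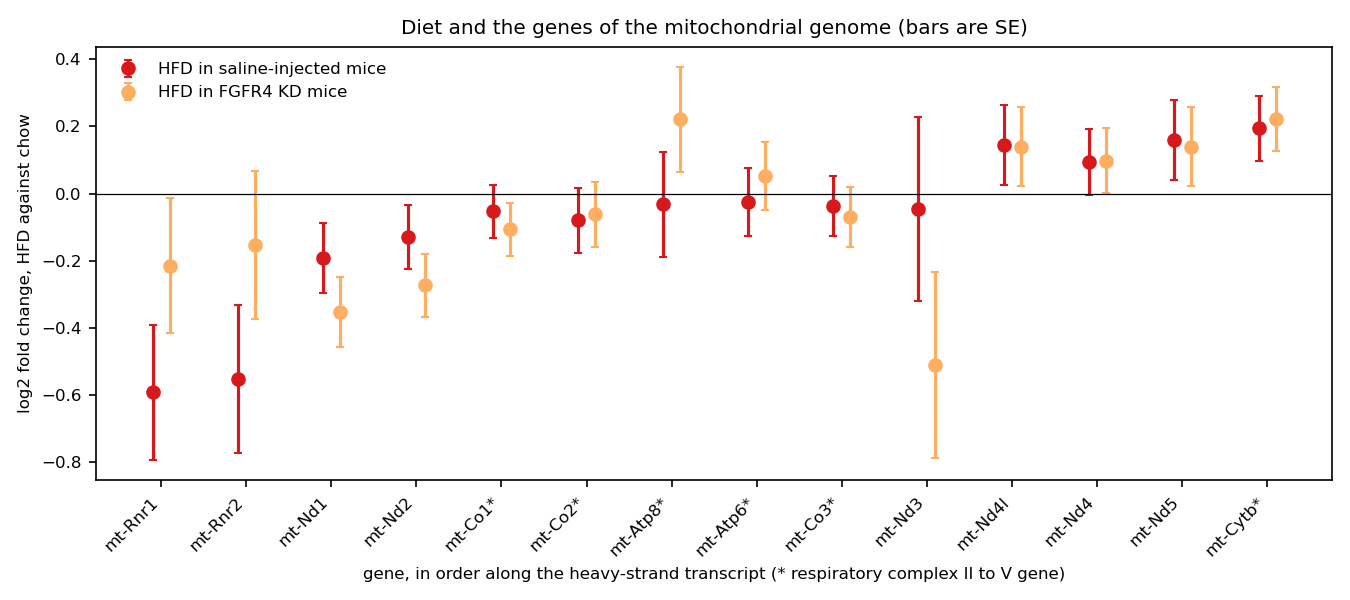
Log2 fold change of HFD against chow (vertical axis, bars are SE) for 14 genes in their order along the heavy-strand transcript (horizontal axis), with nuclear copies counted in for the genes marked with a star. Values run from -0.59 for *mt-Rnr1* to 0.19 for *mt-Cytb* in saline-injected mice, and the last 4 genes are above 0 in both comparisons.

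Summed over genes, the mitochondrial set took 2.45 ± 0.284% of counts in Chow, 2.53 ± 0.266% in Chow/FGFR4 KD, 3.02 ± 0.136% in HFD and 2.86 ± 0.410% in HFD/FGFR4 KD (SD, n = 4). The 42 nuclear genes together took 0.571 ± 0.0828%, 0.569 ± 0.0545%, 0.669 ± 0.0371% and 0.610 ± 0.0651%. For the mitochondrial sum HFD (2.88 to 3.20%) lay above Chow (2.04 to 2.68%), while HFD/FGFR4 KD overlapped with Chow/FGFR4 KD (2.14 to 2.73%) through HFD/FGFR4 KD 1 at 2.28%. Without that library the group was at 2.87 to 3.20% (mean 3.06%), above each Chow/FGFR4 KD library. The total behind these shares includes the ribosomal share above. Without *Gm42418* and *Lars2* in the total, the mitochondrial sums were 3.09%, 3.10%, 3.57% and 3.49%.

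The ratio of both sums, which needs no total, was 4.33 ± 0.474, 4.45 ± 0.242, 4.52 ± 0.183 and 4.68 ± 0.217 in the same order. With the nuclear copies added it was 5.71 ± 0.529, 5.90 ± 0.414, 5.82 ± 0.248 and 6.05 ± 0.278. With all 16 libraries the groups overlapped in both ratios. Without HFD/FGFR4 KD 1 (4.36) the first ratio was 4.77 to 4.82 in HFD/FGFR4 KD, above HFD (4.25 to 4.67), and the difference of the means went from 0.167 to 0.275. With the nuclear copies added the remaining 3 libraries (6.02 to 6.34) still overlapped with HFD (5.51 to 6.03).

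**Figure D5:**
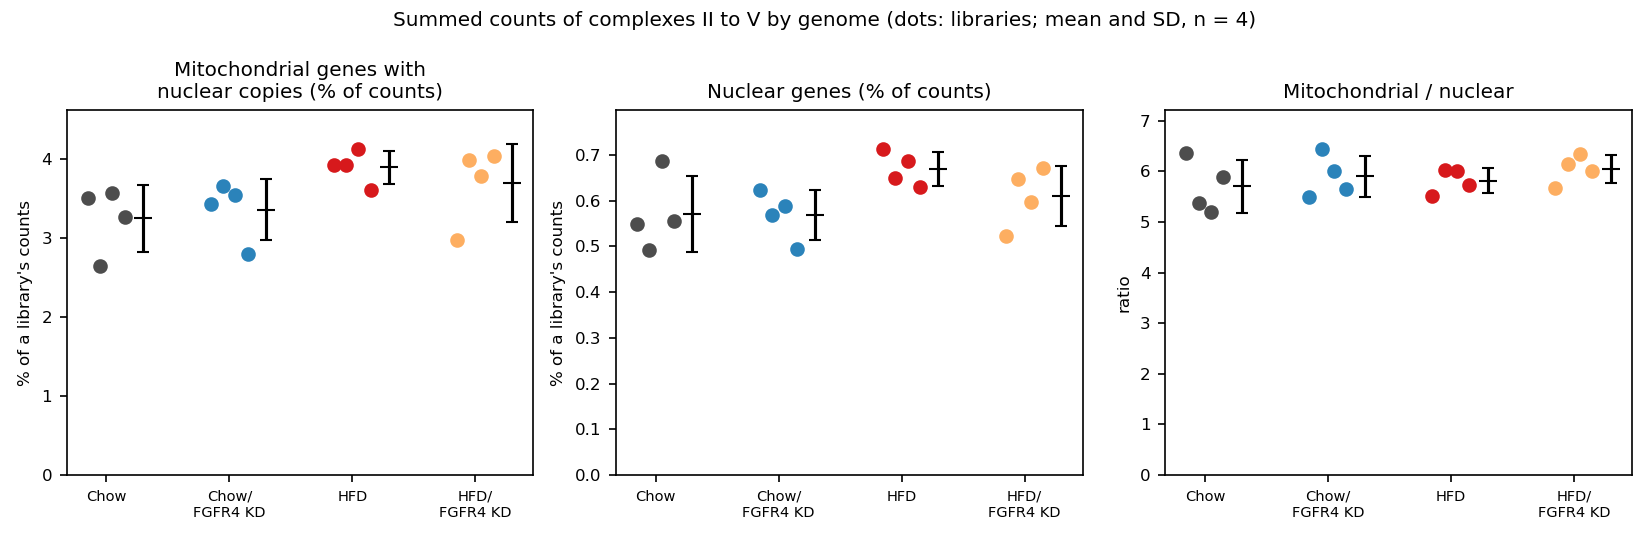
Summed counts of the 6 mitochondrial genes with their nuclear copies and of the 42 nuclear genes (vertical axes, % of a library's counts), and their ratio, in the 4 groups (horizontal axis). Dots are libraries, with mean and SD (n = 4). The ratio runs from 5.19 to 6.44 over all libraries and the groups overlap.

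Genes that build the complexes, rather than form them, were drawn from lists. Of 34 assembly factors tested, 0 passed with KD on either diet. With HFD 3 rose in saline-injected mice, *Cox19* and *Coa6* of the copper route into complex IV and *Uqcc2* of complex III (0.33, 0.46 and 0.38). With KD, 4 rose on HFD, *Sdhaf1*, *Coa7*, *Atpaf1* and the ATP synthase inhibitor *Atpif1* (0.88, 0.36, 0.42 and 0.52), and 2 fell, *Bcs1l* and *Coa5* (-0.33 and -0.24). The medians were -0.02 and -0.06, and none was called in both. The share called, 8.82% and 17.6%, was below that of all genes tested.

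Of 20 genes that copy, transcribe or process the mitochondrial genome, 0 passed with KD, and 5 passed in each diet comparison, where 26% and 20.2% of all genes tested did, so the counts do not set this list apart. In saline-injected mice *Polg* and *Hsd17b10* rose (0.23 and 0.43) and *Ssbp1*, *Trmt10c* and *Mtpap* fell (-0.28, -0.38 and -0.39). *Tefm*, *Mterf2*, *Twnk*, *Polg2* and *Hsd17b10* rose in FGFR4 KD mice (0.67, 1.51, 0.26, 0.68 and 0.54). Only *Hsd17b10* was called in both.

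Among 9 nuclear regulators of respiratory genes only *Ppara*, the fatty acid receptor, passed, with a rise of 0.61 in saline-injected mice (adjusted p 0.0119) and 0.65 in FGFR4 KD mice (adjusted p 0.0221). *Nrf1*, which binds many promoters of respiratory genes, differed by -0.14 and 0.15 (adjusted p 0.692 and 0.757), and the coactivator *Ppargc1a* by -0.17 and -0.00 (adjusted p 0.751 and 0.998).

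Promoters of 33 of the 42 nuclear genes were in the RefSeq table (GRCm38.p6, 36 windows from 250 bases before to 50 after a start). The palindromic site of NRF1 (GCGCA, any base, then GCGC, on either strand) was found in 10 windows (27.8%) and in 4.60% of all 32851 windows. The core bound by ETS factors such as GABP, CCGGAAG, was in 12 (33.3%) against 8.86%, and the CCAAT box in 19 (52.8%) against 37.4%. A TATA box (TATAAA) was in 1 (2.78%) against 13.6%, and GGGCGG, bound by SP1, in 13 (36.1%) against 35.7%. Matches say nothing of binding in these livers, and member genes share features such as GC content that were not matched here.

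Upstream stretches of 250 bases are shown for *Sdha*, with 3 NRF1 matches, and for *Uqcrh* and *Atp5g1*, which passed with diet. NRF1 and ETS matches are in capitals, and each sequence reads 5′ to 3′ on the strand of its gene towards the start site.
Sdha, chr13:74350241-74350490, minus strand: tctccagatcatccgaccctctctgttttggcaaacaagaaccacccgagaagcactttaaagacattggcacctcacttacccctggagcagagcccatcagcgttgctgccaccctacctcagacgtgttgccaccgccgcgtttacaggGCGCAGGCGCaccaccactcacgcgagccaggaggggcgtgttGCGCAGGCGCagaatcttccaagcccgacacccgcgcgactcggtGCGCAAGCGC
Uqcrh, chr4:116075071-116075320, minus strand: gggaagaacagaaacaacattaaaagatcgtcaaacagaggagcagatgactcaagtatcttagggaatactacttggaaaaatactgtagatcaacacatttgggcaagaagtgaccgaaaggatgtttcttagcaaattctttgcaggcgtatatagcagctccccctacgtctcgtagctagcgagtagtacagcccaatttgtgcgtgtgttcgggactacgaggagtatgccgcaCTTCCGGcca
Atp5g1, chr11:96075632-96075881, minus strand: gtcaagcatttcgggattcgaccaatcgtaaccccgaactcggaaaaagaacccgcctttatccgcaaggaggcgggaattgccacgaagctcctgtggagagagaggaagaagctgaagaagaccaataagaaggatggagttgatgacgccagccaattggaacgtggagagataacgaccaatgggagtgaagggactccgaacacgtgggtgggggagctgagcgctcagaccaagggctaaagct
*Sdha* differed by at most 0.12 in size in the 4 comparisons. *Atp5g1*, called in both diet comparisons, has no match to either motif in this stretch.

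Other features of the livers moved with diet at the same time. Here rose and fell mean called. Of all genes tested 26% were called with HFD in saline-injected mice, 20.2% in FGFR4 KD mice and 3.14% with KD on HFD. In saline-injected mice all 8 macrophage markers rose, and their summed level was 64.2 to 72.8 CPM in Chow and 121 to 212 CPM in HFD. Of 8 hepatocyte markers 6 fell, while their sum ran from 68390.4 to 73757 CPM and from 62797 to 73419.7 CPM. All 5 clock genes of the light phase fell, with summed levels of 146 to 191 and 51.5 to 76.1 CPM. With KD on HFD 3 of these 5 clock genes rose (87.9 to 135 CPM in HFD/FGFR4 KD), and all 5 lay above 0. With HFD in FGFR4 KD mice 5 fell. Of 8 clock genes of the dark phase 6 rose with HFD in saline-injected mice (summed levels 188 to 284 CPM in Chow and 318 to 475 CPM in HFD) and 7 in FGFR4 KD mice (169.5 to 191 and 311 to 379 CPM), and 2 fell with KD on HFD. In FGFR4 KD mice 2 macrophage markers rose and all 8 lay above 0. Their sums were 80.2 to 108 CPM on chow and 96.7 to 173 CPM on HFD. There 2 hepatocyte markers fell, with 6 of 8 below 0. With KD on HFD 1 hepatocyte marker fell, while 7 of 8 lay above 0. Of 7 stellate cell markers 4 rose in saline-injected mice, and all 7 lay above 0. Their summed levels were 94.9 to 138 CPM in Chow and 157 to 307 CPM in HFD. Of 7 adipocyte markers *Retn*, *Plin1* and *Lep* were under 1 CPM throughout and 3 were tested, all of which rose on HFD in saline-injected mice (summed levels 4.97 to 29.2 CPM in Chow and 45.8 to 116 CPM in HFD), while 2 fell with KD on HFD (14.2 to 43.4 CPM in HFD/FGFR4 KD). Of 6 endothelial markers 3 rose on HFD in saline-injected mice, with sums of 94.6 to 121 CPM in Chow and 103 to 122 CPM in HFD. The T and B cell markers summed to at most 3.04 CPM. Their part in the values of the respiratory genes was not tested.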

How the data were processed

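Poly(A) RNA of 16 livers was sequenced, 1 library per mouse. The authors pseudoaligned the reads with kallisto and summed transcripts to genes with tximport, and deposited estimated counts per gene. The submitters' processing notes also name fastp and GRCm38. Versions and the transcriptome release are not given in the sources used here. kallisto divides reads between identical sequences by estimation, which bears on the mitochondrial genes and their nuclear copies. Library totals limit the precision of low genes.

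Counts were scaled with TMM factors (0.836 to 1.17; edgeR 4.0.16) and tested with limma-voom (limma 3.58.1, R 4.3.3) over all 4 groups, after leaving out genes under 1 CPM in more than 4 libraries (11324 genes tested). Levels are CPM with these factors, and per kilobase they are divided by the length of a gene's principal transcripts. Genes were called at p under 0.05 and Benjamini-Hochberg adjusted p under 0.25 over all genes tested. For the alternatives, edgeR's quasi-likelihood test and DESeq2 1.42.0 (counts rounded) were used. The fits were tested on simulated data. P-values set the difference between groups against the spread between mice, and shared cages, which are not given, were not in the model.

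Any of the 48 genes could be named. Values in every library went to *Sdha*, *Uqcrc1*, *Cox4i1* and *mt-Co1*, to the mitochondrial genes and to at most 5 rising and 5 falling called genes per comparison with the smallest p, and from the lists the called genes and at most 3 others were named. *Gm42418*, *Lars2* and the nuclear copies were named after their values were seen. The members and lists were chosen with earlier results of these data known. Replicate numbers were not used to pair the mice, and no batch is given in the labels.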

Additional observations from a re-analysis of the deposited data

Results flagged for a closer look

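In each group of 4 mice the gap between an extreme library and the next was compared with the group's range (Dixon's test). Of 104 such groups examined 5 exceeded the 95% critical value, and chance gives about 5.2. *Uqcr10* was at 62.6 CPM in HFD/FGFR4 KD 2 and at 49.8 to 51.4 CPM in the other mice of the group. *Uqcrc2* was at 178 CPM in Chow 3 (others 160.2 to 162 CPM) and at 149 CPM in Chow/FGFR4 KD 4 (others 164 to 167 CPM). *mt-Co2* was at 578 CPM in Chow/FGFR4 KD 3 and at 1174 to 1269.8 CPM in the others, while with its nuclear copies it was at 4689 CPM there, within the 3853 to 4988 CPM of the others. The ratio of the mitochondrial to the nuclear sum was 4.36 in HFD/FGFR4 KD 1, against 4.77 to 4.82 in the rest of its group.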

How the results depend on the processing

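The numbers of genes called were tried under other tests, scalings, filters and sets of libraries, and the causes of the differences were not tested. In FGFR4 KD mice HFD gave 5 calls, 3 with edgeR, 3 with DESeq2, 2 with library totals, 2 with upper quartile factors, 9 where genes needed 1 CPM in 4 or more libraries, 2 without a filter, 9 with library quality weights, 2 with only the groups compared in the fit and 3 without *Gm42418* and *Lars2*. Of all genes tested 20.2% passed there, and 18.2 to 20.9% with edgeR, DESeq2, library totals or upper quartile factors. The share was 18.5% with the filter of 1 CPM in 4 or more libraries, 6.91% without a filter and 23.3% with quality weights. With only the groups compared it was 18.1%, and without *Gm42418* and *Lars2* 19.4%. In saline-injected mice HFD gave 3 calls, all lower, 14 with library totals, all higher, 1 with upper quartile factors and 6 without a filter, 2 higher and 4 lower. Of all genes tested 26%, 38%, 25.4% and 21.3% passed in these settings, in the same order. KD on HFD gave 0 calls, 2 with DESeq2, 1 without a filter, 3 with library quality weights and 2 with only the groups compared. The shares of all genes tested were 3.14%, 3.44%, 1.32%, 6.85% and 1.78% in that order. At an adjusted p under 0.05 there were 0 calls in both diet comparisons, against 9.2% of all genes tested in saline-injected and 3.1% in FGFR4 KD mice. With single libraries left out the counts were 0 to 1 for KD on HFD, 2 to 3 for HFD in saline-injected mice and 1 to 6 for HFD in FGFR4 KD mice. Of all genes tested 0.784 to 5.33%, 21.3 to 26.6% and 10.5 to 22.3% passed, in the same order.

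With the replicate number as a block there were 2 calls for HFD in FGFR4 KD mice, against 20.3% of all genes tested. Deviations of same-numbered mice from their groups had correlations of -0.30 to 0.24. The labels do not say what the numbers stand for, and these correlations cannot show it.

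Library totals turned the sign of *mt-Co1* with KD on HFD (-0.055) and, for HFD in saline-injected mice, of *Uqcrc1* (0.20), *Cox4i1* (0.17), *mt-Co1* (0.25), *Cyc1* (0.084), *Uqcrh* (0.053) and *Atp5g1* (0.089). Of all calls, 92.1% were then higher on HFD in saline-injected mice (51.2% with TMM), 82.8% in FGFR4 KD mice (50.1%) and 33.3% with KD on HFD (47.8%). Upper quartile factors gave 61.4% in FGFR4 KD mice, and no filter 39.3% in saline-injected mice. Adding the nuclear copies turned *mt-Co1* (-0.0075) and *mt-Co2* (0.038) with KD on HFD. With single libraries left out, *mt-Co1* ran from -0.070 to 0.019 for HFD in saline-injected mice (above 0 without Chow 1) and from -0.0099 to 0.051 for KD on HFD (below 0 without HFD/FGFR4 KD 4). The other tests of named genes kept their direction, with 54 losing and 11 gaining a call among 462.

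The summed mitochondrial level was 3.09, 3.10, 3.57 and 3.49% in Chow, in Chow/FGFR4 KD, in HFD and in HFD/FGFR4 KD, respectively, with *Gm42418* and *Lars2* out of the total, and 3.25, 3.36, 3.89 and 3.69% with the nuclear copies added. With 4 mice a group, differences under about 0.19 on the log2 scale were within the median 95% interval of a gene.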
